A study of Mus musculus with 8 samples.

Results

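Immediate-early genes are transcribed within minutes of a growth factor, serum or stress signal and need no newly made protein. The 47 genes described here were taken by name: AP-1 and small Maf subunits, EGR zinc fingers, NR4A receptors, KLF factors with Myc and Csrnp1, IER genes, DUSP phosphatases, Sprouty and other receptor feedback genes, mRNA decay factors, and kinases, GTPases and other effectors. All 47 were found among the 54532 genes of the deposited tables, and 45 of them were among the 14723 genes that passed the expression filter of the test. The other two, Egr4 and Dusp2, were too low to be tested.

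The series holds 8 RNA sequencing libraries of cardiac fibroblasts, the matrix-making cells of the heart, from C57BL/6 mice at passage 2. In 4 libraries the cells had received the plasmid pAAV.CMV.SV40.THBS4-HA.SV40(polyA), which carries murine Thbs4 with an HA tag, and in the other 4 the empty plasmid pAAV-CA. Thbs4 encodes the secreted matricellular protein thrombospondin-4 (TSP-4). By their names these are different constructs, and the groups compare whole plasmids. In both groups the transfection medium was replaced for 12 h by standard medium with no antibiotics, and serum was then withheld for 24 h before RNA was taken. The genes were therefore measured in serum-deprived cells with no added stimulus named in the labels. Each group has libraries lettered A to D. The labels do not say what a letter marks, nor whether each library had its own animal or culture, and the tests therefore rest on library spread alone, which may be technical. Libraries of the same letter deviated together from their group means and values are therefore also compared within a letter.

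Depth was 17123735 to 22530947 counts per library. Thbs4 had 38063, 25754, 36630 and 31675 counts in the TSP-4 plasmid libraries A to D and 2, 11, 8 and 3 counts in the empty plasmid libraries, in keeping with the labels. Fibroblast markers were abundant: Col1a1, a collagen I chain, lay at 4557 to 6150.0 CPM over the 8 libraries, and the 10 markers together at 8220.2 to 11872 CPM. Of 6 cardiomyocyte markers, up to 3 were at 0 counts in a library, and the sum was 12.2 to 17.4 CPM, nearly all of it Tnnt2. The 13 macrophage markers were detected in every library, with a sum of 328 to 1874 CPM with the TSP-4 plasmid and 362 to 1516 CPM with the empty plasmid. In both groups the sum was lowest in library A and highest in library C. CPM are edgeR's depth-scaled counts, with TMM factors applied.

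In the textbook account, a growth factor receptor activates Ras and the ERK kinases, which act on ternary complex factors bound beside serum response factor, while CREB and AP-1 sites respond to parallel kinases. The proteins made from this first wave are transcription factors such as FOS, JUN and EGR1, together with brakes on the same pathway: DUSP phosphatases remove phosphate from ERK, p38 and JNK, Sprouty proteins damp receptor signalling to Ras, and ERRFI1 blocks the EGF receptor. Many of these mRNAs are short-lived because AU-rich sequences in their 3′ UTRs recruit decay factors, of which ZFP36 is one and is itself an early-response gene. In cardiac fibroblasts, AP-1 and EGR1 are known for their part in the response to stretch, angiotensin and growth factors.

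Promoter windows of 6 of the genes are shown to set out the sequence features that early-response genes are known for and the range within the set. Each is the 250 bases before an annotated RefSeq start (build GRCm38.p6), written 5′ to 3′ in the direction of the gene. Capitals mark matches on either strand to the CArG box bound by serum response factor, to TGACG (the core of the cAMP response element TGACGTCA, which contains it), to GCGNGGGCG (the EGR site), to GGGCGG (the GC box, which can overlap an EGR site) and to TATAAA (the TATA box).
Fos promoter, chr12:85473640-85473889, plus strand: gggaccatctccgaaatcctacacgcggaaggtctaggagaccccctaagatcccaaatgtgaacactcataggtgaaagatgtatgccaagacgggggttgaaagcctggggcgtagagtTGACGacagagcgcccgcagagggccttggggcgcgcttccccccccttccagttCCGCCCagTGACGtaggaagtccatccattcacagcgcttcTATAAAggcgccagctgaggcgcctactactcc
Egr2 promoter, chr10:67537619-67537868, plus strand: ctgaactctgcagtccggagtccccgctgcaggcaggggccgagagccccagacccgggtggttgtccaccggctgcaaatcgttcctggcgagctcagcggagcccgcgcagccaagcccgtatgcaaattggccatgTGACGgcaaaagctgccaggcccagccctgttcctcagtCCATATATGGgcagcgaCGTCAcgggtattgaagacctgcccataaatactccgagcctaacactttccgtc
Nr4a2 promoter, chr2:57124004-57124253, minus strand: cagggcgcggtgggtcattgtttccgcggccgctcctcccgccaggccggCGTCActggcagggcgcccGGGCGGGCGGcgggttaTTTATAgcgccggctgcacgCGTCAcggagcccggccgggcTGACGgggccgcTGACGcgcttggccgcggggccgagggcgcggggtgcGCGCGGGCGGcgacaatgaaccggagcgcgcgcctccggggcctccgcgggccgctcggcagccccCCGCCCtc
Btg2 promoter, chr1:134079156-134079405, minus strand: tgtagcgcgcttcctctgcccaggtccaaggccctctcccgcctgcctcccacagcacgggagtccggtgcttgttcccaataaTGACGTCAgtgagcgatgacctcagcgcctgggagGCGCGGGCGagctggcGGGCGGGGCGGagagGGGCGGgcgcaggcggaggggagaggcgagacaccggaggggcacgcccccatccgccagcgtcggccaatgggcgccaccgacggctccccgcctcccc
Ier5 promoter, chr1:155099637-155099886, minus strand: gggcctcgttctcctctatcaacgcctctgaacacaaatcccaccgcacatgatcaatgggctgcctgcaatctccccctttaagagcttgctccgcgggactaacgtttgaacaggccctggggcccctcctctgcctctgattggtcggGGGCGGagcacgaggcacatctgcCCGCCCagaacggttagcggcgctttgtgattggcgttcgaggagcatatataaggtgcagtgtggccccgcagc
Rnd3 promoter, chr2:51149112-51149361, minus strand: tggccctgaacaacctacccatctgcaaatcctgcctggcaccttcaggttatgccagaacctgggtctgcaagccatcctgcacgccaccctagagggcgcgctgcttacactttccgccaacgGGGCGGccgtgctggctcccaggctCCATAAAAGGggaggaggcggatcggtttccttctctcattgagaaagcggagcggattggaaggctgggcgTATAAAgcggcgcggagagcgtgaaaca

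Fos, Nr4a2 and Ier5 are among the genes with the smallest p-values. The Fos window held 2 TGACG matches, a GC box and a TATA box, and the Nr4a2 window 4 TGACG matches, an EGR site, 4 GC boxes and a TATA box. Egr2 is shown for its CArG box, present in this window, which is 1 of 5 annotated for the gene, and Btg2 for a complete TGACGTCA. Of the marked motifs, matched letter for letter, the Ier5 window held only 2 GC boxes. Rnd3, shown as a gene whose value lay on the other side of 0, held a CArG box, a GC box and a TATA box.

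RefSeq windows were given for 36 of the 47 genes, and the 250 bases before each start were searched on both strands. The 11 genes with no window were Fosl1, Egr1, Egr3, Klf10, Myc, Ier2, Dusp4, Spry4, Trib1, Arc and Gem. Sites farther from the start were not searched, so a gene with no match, such as Fos for the CArG box, may still have one. TGACG was found in 23 of the 36 (63.9%), against 19.8% of all 27025 genes in the table and 30% of the 10601 with a window that passed the expression filter. TGACGTCA was found in 6 (16.7%), against 1.77% and 2.97%, and a CArG box in 4 (11.1%), against 1.62% and 1.45%. GCGNGGGCG was in 11 (30.6%), against 5.33% and 10.4%. GGGCGG was in 30 (83.3%), against 35.4% and 62.7%, and TATAAA in 7 (19.4%), against 14.3% and 8.3%. The AP-1 site TGANTCA was in 3 genes (8.33%, against 7.82% and 5.94%), and the ETS core CCGGAAG in 2 (5.56%, against 7.83% and 15.1%). By window rather than by gene, 52 windows against 32851, the shares were 55.8% against 17.8% for TGACG and 13.5% against 1.47% for the CArG box. Of the 36 genes, 6 had several windows, and windows of a gene can overlap. A CArG box of Egr2 was counted more than once in this way, so the shares by gene are the safer ones. These are matches of letters and were not shown to be bound here.

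The AU-rich pentamer ATTTA was present in most of the 3′ UTRs, but not in those of Arc, Ier2, Rcan1 and Trib1. For 5 genes picked as examples, the stretch of 30 bases with the most ATTTA is given, so these are not typical stretches. They are written as DNA letters of GENCODE M21 transcripts (build GRCm38), with ATTTA in capitals.
Fos, bases 645 to 674 of the 3′ UTR: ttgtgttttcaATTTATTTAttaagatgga
Ier3, bases 177 to 206 of the 3′ UTR: ctaattaatATTTAtgtATTTAtgtatatc
Dusp1, bases 97 to 126 of the 3′ UTR: agctggtccttATTTATTTAacacccccct
Plk3, bases 252 to 281 of the 3′ UTR: ttttATTTAttaacagacATTTATTTAttg
Zfp36, bases 574 to 603 of the 3′ UTR: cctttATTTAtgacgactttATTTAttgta

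Over the longest annotated 3′ UTR of each gene, ATTTA was found in 41 of 45 early-response genes (91.1%), against 70.5% of 12934 tested genes with a 3′ UTR. The longer TATTTAT was in 27 (60%), against 30.7%, and TTATTTATT in 9 (20%), against 8.38%. Median UTR lengths were close, 1203 and 1197.5 bases, and TATTTAT matches per kilobase were 0.755 against 0.291. The 3′ UTR shown for Zfp36 belongs to a factor that binds such stretches.

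Per length of transcript, the genes spanned a wide range of levels. The deposited FPKM, counts scaled by gene length and library size, put Ier3 highest with a mean of 145 FPKM over the 8 libraries, followed by Maff (84.4), Junb (80.6), Dusp4 (69.99), Plk2 (62.5) and Dusp1 (52.6). Among the Fos proteins Fosl1 (45.1) and Fosl2 (31.7) were well above Fos (4.12) and Fosb (1.07). Egr1 was the most abundant EGR gene at 17.5 FPKM, with Egr2 at 2.63 and Egr3 at 0.525. Nr4a1 led the NR4A receptors at 11.3 FPKM. The lowest were Dusp2, with 1 to 10 counts a library, and Egr4, with 0 to 5.

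**Figure D1:**
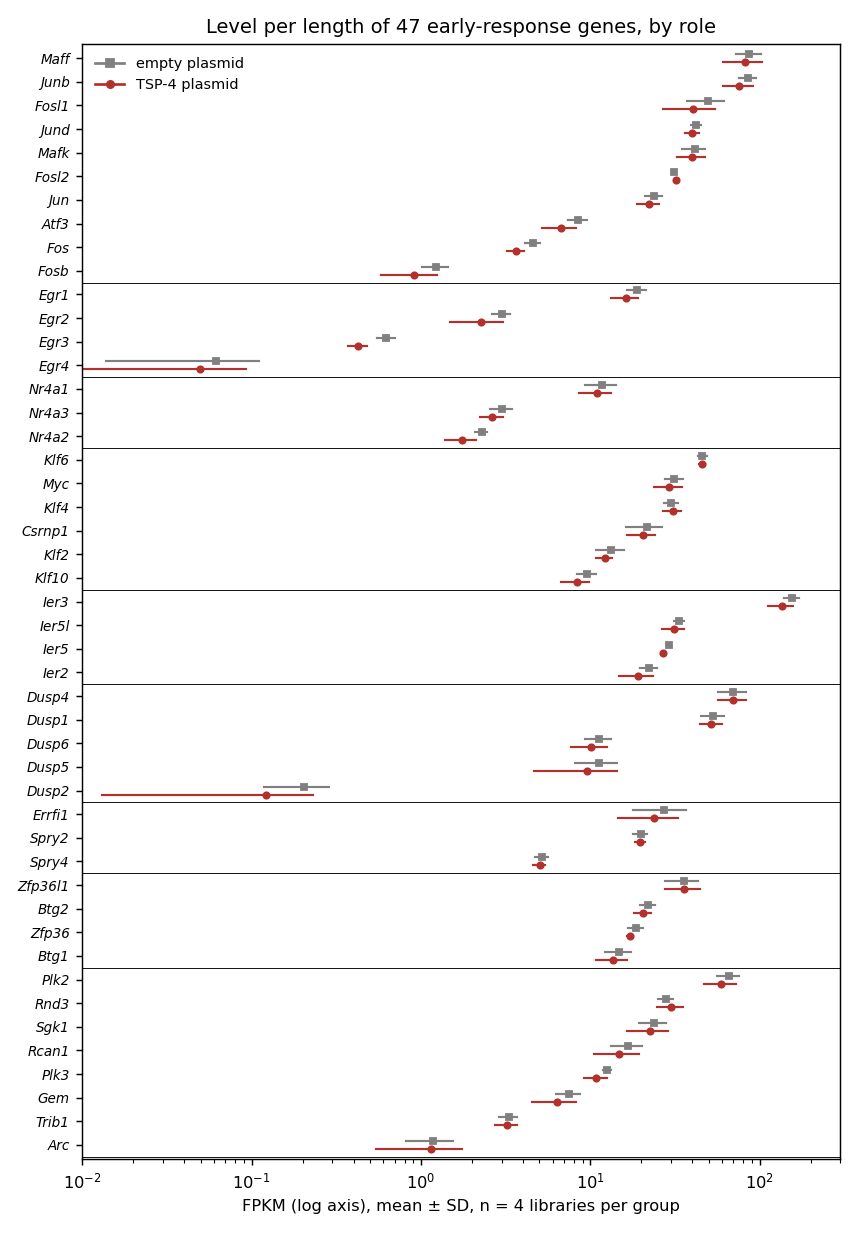
Level per length of the 47 genes, grouped by role and ordered by mean FPKM within a role; points are means and bars SD over 4 libraries, gray squares for the empty plasmid and red circles for the TSP-4 plasmid, on a log axis from which the bar of Egr4 runs off on the left. Levels run from 0.0558 FPKM for Egr4 to 145 for Ier3, and for each gene the groups lie close together on this scale.

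Across the set, early-response genes lay lower with the TSP-4 plasmid by a small amount that no gene passed on its own. In edgeR's quasi-likelihood test, Benjamini-Hochberg adjusted over all 14723 genes, 0 of the 45 were called in either direction, with a smallest adjusted p of 0.999968. The background was 0% of genes called lower and 0.00679%, Thbs4 alone, called higher. The log2 fold change lay below 0 for 41 of 45 (91.1%), against 50.1% of all genes, with a median of -0.12 against -0.00014 for all genes. The 45 genes come from the same 8 libraries and are not independent replicates of the plasmid. The gene lists and the tests were chosen with earlier results of these data known. Some other lists were also lopsided: 12 of 13 macrophage and 9 of 10 fibroblast markers lay above 0, and 6 of 7 endothelial markers below. Of 18 ERK cascade genes, 9 lay below 0. At an unadjusted p under 0.05, 4 of 45 were lower (8.89%; 0.944% of all genes), namely Fos, Egr3, Ier5 and Nr4a2, and 0 were higher (0.652% of all genes). In bulk RNA, fewer cells of a type and less RNA per cell cannot be told apart.

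With the letter as a replicate block, 23 of 45 genes were lower at an unadjusted p under 0.05 (51.1%; 3.98% of all genes) and 0 higher (4.14% of all genes), with a median of -0.13. None passed the adjusted threshold in that fit either, where the smallest adjusted p was 0.339 and 0.00679% of all genes were called lower and as many higher. DESeq2 with the block, in which 2 of the 45 had no adjusted p, gave a smallest value of 0.0976, for Fosl1. It called 0.0204% of all genes lower and 0.0272% higher. The count at an unadjusted p under 0.05 was 17 in that fit, all lower (1.11% of all genes lower, 1.86% higher), and 25 in limma voom with the block, all lower (4.04% and 4.58%). Within letters, 21 of 45 genes were lower in 4 of 4 (46.7%; 8.04% of all genes) and 1, Fosl2, was higher in 4 of 4 (8.03% of all genes). In a further 13 genes the TSP-4 plasmid library was lower in 3 letters, in 9 genes in 2, and in Rnd3 in 1. The 4 libraries of each group did not overlap for 3 genes lower with the TSP-4 plasmid (6.67%; 0.863% of all genes), which were Fos, Egr3 and Ier5, and for 0 higher (0.652% of all genes).

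**Figure D2:**
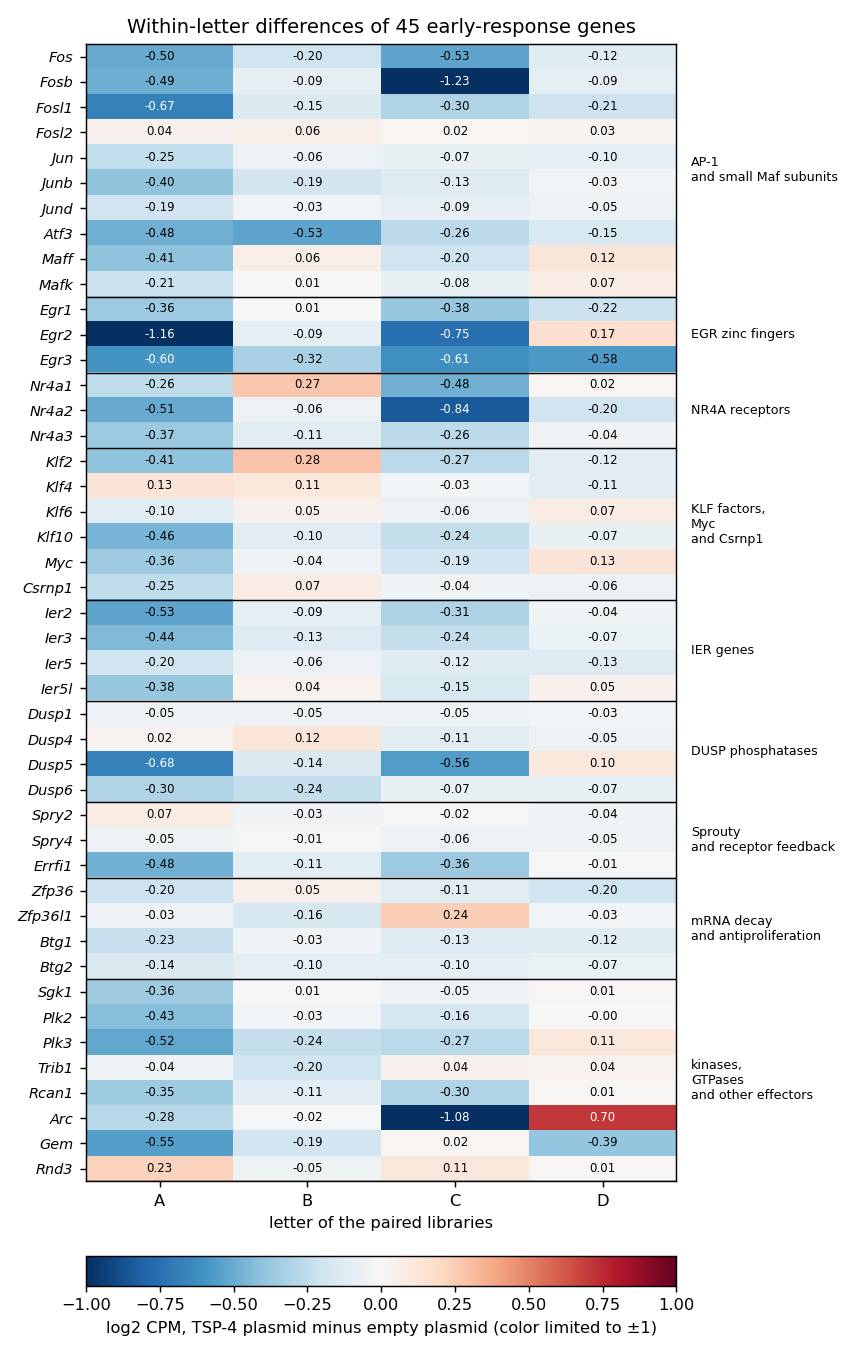
Difference in log2 CPM between the TSP-4 plasmid and the empty plasmid library of the same letter, for the 45 genes tested, grouped by role; blue is lower with the TSP-4 plasmid, red higher, and each cell prints its value, with color limited to 1 either way. Cells below 0 number 40 of 45 in columns A and C, the color is deepest in A (median -0.36), most cells of the other columns are pale, and Fosl2 is the gene with no value below 0.

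The difference was unequal between letters. The median over the 45 genes was -0.36 on the log2 CPM scale in letter A, -0.06 in B, -0.15 in C and -0.04 in D, while the medians of all genes lay between -0.0074 and 0.0057. In letter A 40 of 45 genes were lower (88.9%; 48.8% of all genes), in B 32 (71.1%; 52%), in C 40 (88.9%; 50.2%) and in D 30 (66.7%; 48.9%). The mean log2 CPM of the 45 genes was 5.32, 5.53, 5.47 and 5.76 in the TSP-4 plasmid libraries A to D and 5.63, 5.59, 5.71 and 5.80 in the empty plasmid libraries. The groups overlapped on this mean: the TSP-4 plasmid library D was above the empty plasmid libraries A, B and C.

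**Figure D3:**
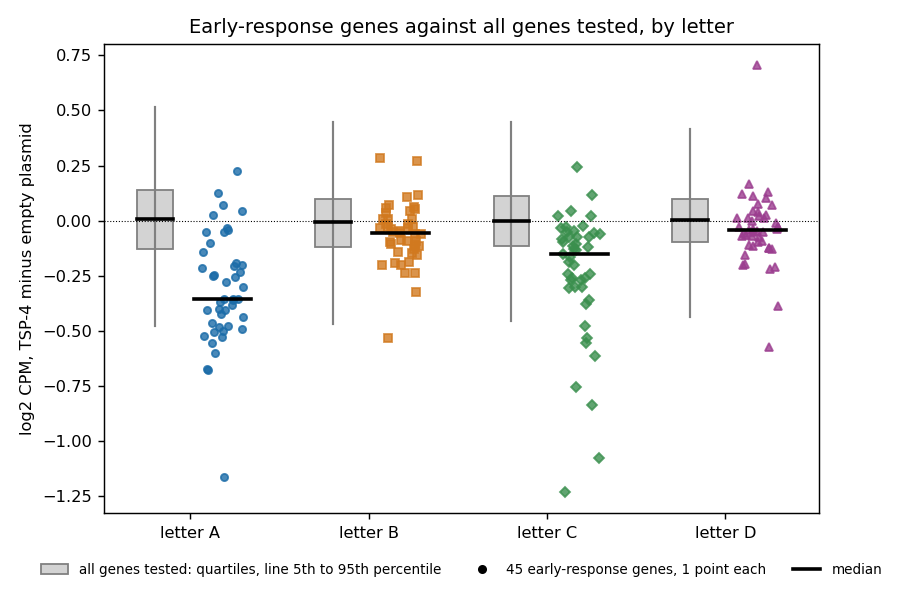
Within-letter differences in log2 CPM, TSP-4 plasmid minus empty plasmid; each colored point is 1 of 45 early-response genes, gray boxes show the quartiles of 14723 genes with a line from the 5th to the 95th percentile, and thick black bars are medians. The early-response median is lowest in letter A (-0.36), then C (-0.15), and lies near the median of all genes in B and D.

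Other measures also moved with the letters. The median within-letter difference of the 10 fibroblast markers was 0.20 in A, -0.08 in B, 0.19 in C and 0.01 in D, and that of the 9 growth factor receptors 0.10, 0.02, 0.15 and -0.08. For the 13 macrophage markers it was -0.0017, -0.47, 0.30 and 0.23, for the 7 endothelial markers -0.44, -0.05, 0.02 and 0.02, and for the 5 tested pericyte and smooth muscle markers -0.12, -0.08, -0.21 and -0.23. The endothelial sum was 42.7 to 62.0 CPM with the TSP-4 plasmid and 45.02 to 78.9 with the empty plasmid, and the pericyte and smooth muscle sum 38.1 to 60.2 and 44.996 to 66.9 CPM, with up to 1 of 7 of the latter at 0 counts. In letter A the TSP-4 plasmid library was the deepest, with 22530947 counts against 21292609, and mitochondrial genes took 1.00% against 0.921% of counts. In letter C the TSP-4 plasmid library was the shallower, with 17123735 counts against 19557082, and mitochondrial genes took 0.938% against 0.937%. In B the counts were 17681837 against 17202402 (0.987% against 0.969%), and in D 17557579 against 18757310 (0.857% against 0.883%). The part of these measures in the result was not tested.

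Among AP-1 subunits, which bind DNA as dimers of FOS and JUN family proteins, 9 of 10 had a log2 fold change below 0 (median -0.14). Of the 10, 7 were lower in 4 of 4 letters, and 1 reached an unadjusted p under 0.05 without the block and 6 with it. Over all genes, 8.04% were lower in 4 of 4 letters, and 0.944% and 3.98% were lower at that p without and with the block. These shares are the background for the counts of each role group below. Fos (ENSMUSG00000021250, chr12:85473890-85477273, plus strand), the founding subunit, stood at 7.26, 9.58, 8.57 and 8.93 CPM in the TSP-4 plasmid libraries A to D and at 10.3, 11.02, 12.4 and 9.75 CPM in the empty plasmid libraries. The groups did not overlap, and the gap was wide in A and C and narrow in D. Its log2 fold change was -0.34 (SE 0.12, 95% interval -0.61 to -0.08), and with the block -0.35 (SE 0.10, adjusted p = 0.425). Fosb, a low-level relative of Fos, was at 5.05, 5.70, 3.55 and 8.60 CPM against 7.14, 6.07, 8.46 and 9.18 CPM, again A to D. Its lowest library was C with the TSP-4 plasmid, and the TSP-4 plasmid library D lay above 3 of the 4 empty plasmid libraries. Its log2 fold change was -0.43 (SE 0.25) without the block and -0.45 (SE 0.17, adjusted p = 0.551) with it.

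Fosl1 encodes FRA1, the FOS protein that accumulates in growing and migrating cells. Its CPM were 39.3, 69.3, 72.3 and 97.4 with the TSP-4 plasmid and 62.6, 76.8, 89.2 and 113 with the empty plasmid, with A lowest and D highest in both groups. Groups overlapped, and letters differed more than plasmids did: the log2 fold change was -0.30 with an interval of -0.95 to 0.35 without the block, and -0.33 with an interval of -0.51 to -0.14 with it (adjusted p = 0.419). Jun, the main partner of FOS proteins, was at 56.6, 68.5, 77.2 and 81.1 CPM against 67.3, 71.5, 81.3 and 86.7 CPM. It too was lowest in A and highest in D of both groups, with a smaller step between plasmids (log2 fold change -0.11, SE 0.12, without the block and -0.12, SE 0.05, with it, adjusted p = 0.528). Junb, a JUN protein that often restrains growth, was at 123, 187, 195 and 197 CPM against 162, 212, 214 and 201 CPM. Library A was the lowest of both groups, and the plasmid difference was widest in A and narrowest in D (log2 fold change -0.17, SE 0.16, without the block and -0.19, SE 0.05, with it, adjusted p = 0.425). Junb shares its locus with Prdx2, a peroxidase gene on the opposite strand with more counts, and since the strand setting of the counting is not given, reads of the pair cannot be told apart; Prdx2 itself was at 334 ± 14.5 and 327 ± 15.4 CPM (SD, n = 4 each; log2 fold change 0.03).

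Atf3, a stress-induced bZIP repressor that pairs with JUN proteins, had the smallest adjusted p of the 45 genes in the edgeR fit with the block (adjusted p = 0.339). Its values were 10.7, 12.8, 17.3 and 17.4 CPM with the TSP-4 plasmid and 14.98, 18.5, 20.7 and 19.4 CPM with the empty plasmid. Every letter was lower, by -0.48, -0.53, -0.26 and -0.15 on the log2 scale from A to D, but library A of the empty plasmid lay below C and D of the TSP-4 plasmid. The log2 fold change was -0.34 (SE 0.17) without the block and -0.35 (SE 0.08) with it. Maff, a small Maf protein without an activation domain and the second of the set by FPKM, was at 178, 191, 188 and 296 CPM against 235, 183, 215 and 272 CPM. Library D was the highest of both groups, and the sign differed between letters (log2 fold change -0.09, SE 0.18, without the block and -0.11, SE 0.09, with it, adjusted p = 0.841). The remaining AP-1 genes were nearer to 0: Jund at -0.09, Mafk at -0.05, and Fosl2, the FRA2 gene, at 0.04. Fosl2 was at 319.7, 311, 311 and 307 CPM against 310.2, 299, 306 and 301 CPM, within a range so narrow that its 95% interval was -0.06 to 0.13.

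**Figure D4:**
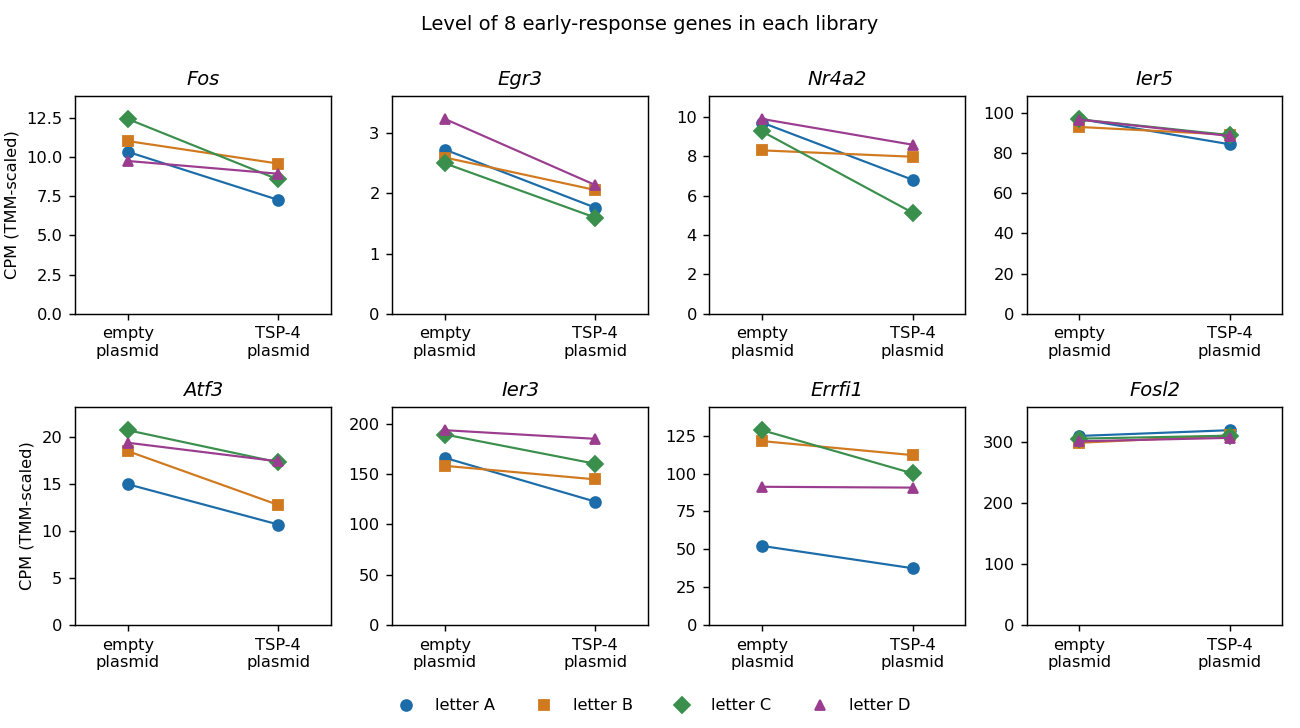
TMM-scaled CPM of 8 early-response genes in each of the 8 libraries; each line joins the empty plasmid and TSP-4 plasmid library of 1 letter, and each axis starts at 0. Lines slope down for Fos, Egr3, Nr4a2, Ier5, Atf3, Ier3 and Errfi1, most gently for Ier5 and for letter D of Errfi1, and slope up slightly for Fosl2.

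The EGR zinc fingers, which bind GC-rich sites in growth and matrix genes, had 3 of 3 tested members below 0 (median -0.41), with 1 at an unadjusted p under 0.05 without the block and 2 with it. Egr1, the most abundant, stood at 55.1, 84.4, 68.8 and 83.2 CPM with the TSP-4 plasmid and 70.7, 84.04, 89.5 and 96.7 CPM with the empty plasmid. It was lower in A, C and D and level in B (0.01), with a log2 fold change of -0.23 (SE 0.15) without and -0.24 (SE 0.06, adjusted p = 0.376) with the block. Egr3 (ENSMUSG00000033730, chr14:70077203-70082614, plus strand), which is switched on by the same signals, was at 1.76, 2.05, 1.60 and 2.14 CPM against 2.72, 2.59, 2.50 and 3.23 CPM. The groups did not overlap, and all 4 letters were lower, by -0.32 in B and by -0.58 to -0.61 in the others. Its log2 fold change of -0.55 (SE 0.17, 95% interval -0.94 to -0.16) was the largest in size of the 45, and with the block it was -0.55 (SE 0.18, adjusted p = 0.449). It rested on 27 to 62 counts a library. Egr2 differed by -1.16, -0.09, -0.75 and 0.17 from A to D, with adjusted p = 0.672 in the fit with the block. Egr4 was at 0 to 5 counts a library, too few for a difference to be detectable.

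All 3 NR4A genes, orphan nuclear receptors that act without a known natural hormone, lay below 0 (median -0.19), and 2 were lower in 4 of 4 letters. Nr4a2 (ENSMUSG00000026826, chr2:57106830-57124003, minus strand) stood at 6.81, 7.99, 5.14 and 8.60 CPM with the TSP-4 plasmid and 9.72, 8.31, 9.27 and 9.91 CPM with the empty plasmid. The only overlap was library D of the TSP-4 plasmid, above library B of the empty plasmid. The difference was -0.84 in C and -0.06 in B, and over all libraries -0.38 (SE 0.16) without the block and -0.40 (SE 0.13, adjusted p = 0.431) with it. Nr4a3 was at 15.5, 13.4, 15.2 and 19.3 CPM against 20.1, 14.4, 18.2 and 19.8 CPM. Library B was the lowest of both groups, and the step was clearest in A and C (log2 fold change -0.19, SE 0.14, without the block and -0.20, SE 0.08, with it, adjusted p = 0.547). Nr4a1, the most abundant of the family, was lower in A and C and higher in B and D, at -0.11 (SE 0.19).

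KLF zinc fingers with Myc and Csrnp1 had 5 of 6 genes below 0, at a median of -0.09 that was small beside their spread. Klf10, also known as TGF-β-inducible early gene, was the member with the smallest p, at 27.8, 31.8, 36.5 and 43.1 CPM against 38.4, 34.2, 43.1 and 45.3 CPM. It was lower in 4 of 4 letters, most in A, and the groups overlapped (log2 fold change -0.21, SE 0.14, without the block and -0.22, SE 0.07, with it, adjusted p = 0.425). Myc, the growth regulator, was lower in A, B and C and higher in D, at -0.11 (95% interval -0.41 to 0.20). Klf2, a quiescence factor best known in endothelium, was at -0.14, Csrnp1, a nuclear protein of the Axin response, at -0.08, Klf6 at -0.01 and Klf4, a reprogramming factor, at 0.03. For Klf6 the interval was -0.14 to 0.12, which bounds the difference either way.

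The IER genes were named for their early response and have less settled roles. All 4 lay below 0 (median -0.17), 3 of them in 4 of 4 letters. Ier3, a survival factor that prolongs ERK signalling and the highest of the 47 by FPKM (135 ± 22.9 against 155 ± 15.1 FPKM, SD, n = 4), stood at 122, 145, 160.1 and 185 CPM with the TSP-4 plasmid and 166, 158, 189 and 193 CPM with the empty plasmid. Library A of the TSP-4 plasmid was the lowest of the 8 and library D of the empty plasmid the highest (log2 fold change -0.21, SE 0.12, without the block and -0.22, SE 0.05, with it, adjusted p = 0.376). Ier2 was at 20.1, 30.6, 29.8 and 36.5 CPM against 29.1, 32.6, 36.9 and 37.5 CPM. Its step was -0.53 in A and -0.31 in C, but -0.09 in B and -0.04 in D (log2 fold change -0.22, SE 0.17, without the block and -0.24, SE 0.08, with it, adjusted p = 0.448). Ier5 (ENSMUSG00000056708, chr1:155096361-155099636, minus strand), a nuclear partner of heat shock factor, was at 84.4, 89.2, 88.99 and 88.6 CPM against 97.04, 93.1, 96.8 and 96.8 CPM. The groups did not overlap although the difference was small, and Ier5 varied less between letters than any other of the 45 genes (letter means within 0.04 on the log2 scale). Its log2 fold change was -0.13 (SE 0.04, 95% interval -0.22 to -0.04), and the block left it at -0.13 (adjusted p = 0.431). Ier5l, its paralog, was lower in A and C and higher in B and D (-0.10).

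Of the DUSP phosphatases, which switch off MAP kinases, 4 of 4 tested genes lay below 0. Their median of -0.10 was near the -0.12 of all 45 genes, and 1 had an unadjusted p under 0.05 with the block. Dusp6, the cytoplasmic ERK phosphatase and a common readout of ERK activity, stood at 21.4, 31.4, 38.6 and 36.1 CPM with the TSP-4 plasmid and 26.3, 37.01, 40.7 and 38.01 CPM with the empty plasmid. Library A was the lowest and C the highest of both groups, and every letter was lower (log2 fold change -0.16, SE 0.20, without the block and -0.17, SE 0.06, with it, adjusted p = 0.478). Dusp4, a nuclear MAP kinase phosphatase and the fourth of the set by FPKM, was at 222, 181, 148 and 219 CPM against 218, 166, 159 and 227 CPM. A and D were high and B and C low in both groups, with no side taken by the plasmid (log2 fold change -0.0022, 95% interval -0.38 to 0.37). Dusp1, which acts on p38 and JNK as well as ERK, was lower in 4 of 4 letters by only -0.03 to -0.05, with adjusted p = 0.813 in the fit with the block. Dusp5, specific for ERK in the nucleus, differed by -0.68 in A and -0.56 in C but by 0.10 in D. Dusp2, mainly a gene of blood cells, had 1 to 10 counts a library.

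Of the receptor feedback genes, Errfi1, the inhibitor of the EGF receptor family, stood apart from the Sproutys. It was at 37.5, 112, 100.2 and 90.7 CPM with the TSP-4 plasmid and 52.2, 121, 129 and 91.3 CPM with the empty plasmid. Library A was the lowest of both groups by far, and the plasmid step was -0.48 in A and -0.36 in C but -0.01 in D. Without the block this spread left a log2 fold change of -0.21 with an interval of -1.10 to 0.68, and with it -0.23 (-0.40 to -0.07; adjusted p = 0.467). Spry2 and Spry4, inhibitors between receptors and Ras, had log2 fold changes of -0.01 (95% interval -0.20 to 0.18) and -0.04 (-0.23 to 0.14).

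Among the genes of mRNA decay and growth arrest, 3 of 4 lay below 0 and 3 had an unadjusted p under 0.05 with the block. Zfp36, tristetraprolin, stood at 58.2, 58.4, 59.4 and 63.04 CPM with the TSP-4 plasmid and 67.02, 56.2, 64.4 and 72.2 CPM with the empty plasmid. Libraries of the former were close together, and library B of the latter lay below them all (log2 fold change -0.12, SE 0.08, without the block and -0.12, SE 0.05, with it, adjusted p = 0.577). Btg1, an antiproliferative protein that recruits the deadenylase complex, was at 49.7, 77.3, 81.7 and 79.8 CPM against 58.4, 79.1, 89.3 and 86.9 CPM. Library A was well below the others in both groups, and each letter was lower with the TSP-4 plasmid (log2 fold change -0.12, SE 0.19, without the block and -0.13, SE 0.04, with it, adjusted p = 0.478). Btg2, its relative and a p53 target, was at 46.97, 58.1, 62.6 and 57.03 CPM against 51.9, 62.1, 66.9 and 59.8 CPM. The steps were alike in size, -0.14, -0.10, -0.10 and -0.07 from A to D, and smaller than the spread of the letters (log2 fold change -0.10, SE 0.10, without the block and -0.10, SE 0.04, with it, adjusted p = 0.578). Zfp36l1, another AU-rich binding protein, differed by -0.16 in B and 0.24 in C, and averaged 0.01.

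Of 8 kinases, GTPases and other effectors, 7 lay below 0 (median -0.11), but 1, Plk2, was lower in 4 of 4 letters, and 4 had an unadjusted p under 0.05 with the block. Plk2, a polo-like kinase of the stress response, stood at 218, 236, 270.0 and 347 CPM with the TSP-4 plasmid and 293, 240.3, 303 and 347 CPM with the empty plasmid. Libraries B and D were level between plasmids, and A carried most of the difference (log2 fold change -0.14, SE 0.16, without the block and -0.15, SE 0.07, with it, adjusted p = 0.615). Plk3, another stress kinase of that family, was at 23.9, 26.8, 25.3 and 33.7 CPM against 34.3, 31.6, 30.6 and 31.1 CPM. Its TSP-4 plasmid libraries A, B and C lay below every empty plasmid library, and D lay above 3 of them (log2 fold change -0.22, SE 0.10, without the block and -0.23, SE 0.09, with it, adjusted p = 0.551). Rcan1, an inhibitor of calcineurin, was at 41.02, 36.6, 40.1 and 66.3 CPM against 52.5, 39.6, 49.5 and 65.8 CPM. Library D was the highest of both groups and level between plasmids (log2 fold change -0.17, SE 0.22, without the block and -0.19, SE 0.06, with it, adjusted p = 0.458).

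Gem, a small GTP-binding protein that restrains calcium channels, was at 8.12, 15.8, 16.9 and 12.8 CPM with the TSP-4 plasmid and 11.98, 18.1, 16.7 and 16.8 CPM with the empty plasmid. Library A was the lowest of both groups, and C was level (log2 fold change -0.25, SE 0.23, without the block and -0.27, SE 0.09, with it, adjusted p = 0.478). Rnd3, a small GTP-binding protein, was the gene with the largest value above 0, at 0.08 (95% interval -0.20 to 0.37), and was lower only in B. Sgk1, a kinase induced by serum and glucocorticoid, was at -0.07, at -0.36 in A and between -0.05 and 0.01 in the other letters. Trib1, a pseudokinase that guides protein breakdown, was at -0.04. Arc, best known at synapses and low here at 1.16 FPKM, gave the most discordant letters, -1.08 in C and 0.70 in D.

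For most of these genes, as for most of all genes tested, the letter means spanned more than the mean plasmid difference. The range of the 4 letter means exceeded the size of the mean plasmid difference in 41 of 45 genes, the exceptions being Fos, Egr3, Ier5 and Plk3. A range over 4 means tends to exceed a single mean difference even with no effect of letter or plasmid. The count therefore does not weigh letters against plasmids. The median letter range was 0.49 on the log2 CPM scale, and the median size of the plasmid difference 0.13. Over all genes these medians were 0.30 and 0.07, and the range exceeded the difference in 14075 of 14723. Letter ranges were widest for Errfi1 (1.40), Arc (1.13), Dusp5 (1.11) and Fosl1 (1.08), and D was the highest letter for 26 of the 45 genes (57.8%; 27.2% of all genes). The lowest letter was A for 21 of 45 (46.7%; 28.3% of all genes), the letter that also had the fewest macrophage marker counts, where all 13 markers were lowest in A and highest in C. The part of the macrophage markers in these ranges was not tested.

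**Figure D5:**
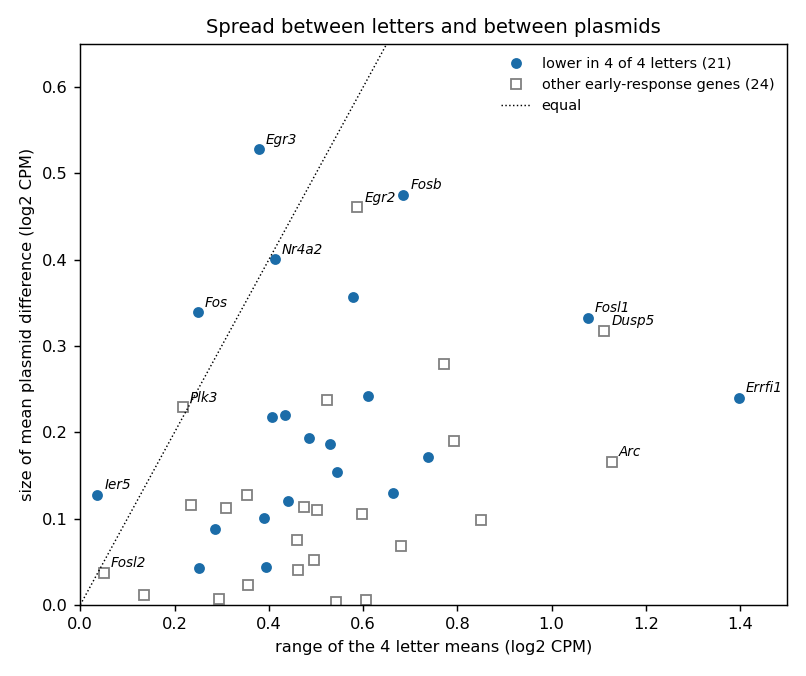
For each of the 45 genes, the range of its 4 letter means (horizontal, log2 CPM) against the size of its mean plasmid difference (vertical, log2 CPM); filled circles are the 21 genes lower in 4 of 4 letters, open squares the other 24, and the dotted line marks equality. Fos, Egr3, Ier5 and Plk3 lie above the line, and Errfi1 is farthest to the right at 1.40. Range and difference are unlike measures, and the line is a guide only.

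The size of difference that these libraries allow was limited. Without the block, the 95% interval lay within 2-fold of no difference for 42 of the 45 genes, all but Fosb, Dusp5 and Errfi1. With the block it did so for 44, all but Egr2 (-1.0006 to 0.11). The median over the 45 genes depended on single libraries: it was -0.227 without the TSP-4 plasmid library D, -0.078 without the TSP-4 plasmid library A and -0.069 without the empty plasmid library D. Of 25 genes with values for every library, Fosl2 aside, 15 came nearer to 0 by more than 1.5 times, or changed sign, without the TSP-4 plasmid library A in the fit with no block. Dusp6 then stood at -0.0031, Jun at -0.02, Junb at -0.03, Ier2 at -0.07 and Fosl1 at -0.10, and Errfi1 and Btg1 at 0.04 and 0.02. Fos, Egr3, Nr4a2 and Ier5 stood at -0.27, -0.51, -0.36 and -0.11.

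Fold changes were also set beside the sequence features. The 22 tested genes with a TGACG match in a promoter window had a median log2 fold change of -0.16, with 21 below 0 and 11 lower in 4 of 4 letters. The 12 without a match had a median of -0.09, with 9 below 0 and 5 lower in 4 of 4 letters. For the 3′ UTR, the 27 genes with TATTTAT and the 18 without had the same median of -0.12, with 25 and 16 below 0 and 15 and 6 lower in 4 of 4 letters. These splits are descriptions and carry no test.

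The lists of upstream signalling genes, measured here as mRNA, had medians close to 0. Of 18 genes of the ERK cascade 9 lay below 0 (median 0.00082), of 13 of the p38 and JNK cascade 5 (median 0.0041), and of 15 regulators of the SRF, CREB and EGR kind 8 (median -0.0039). No gene of these lists was called. At an unadjusted p under 0.05 there were 0 without the block (0.944% of all genes lower, 0.652% higher). With the block there was 1, lower (3.98% of all genes lower, 4.14% higher). It was the p38 pathway kinase gene Map2k3 (log2 fold change -0.12, adjusted p = 0.554 with the block). In 4 of 4 letters Mapkapk3 was lower (8.04% of all genes) and Mkl1 and Mkl2 were higher (8.03%). These 4 genes were named after their values were seen, and such counts show no difference in these lists. The ERK kinase Mapk3 was at 217 ± 12.1 CPM against 211 ± 16.4 CPM, and Srf, the serum response factor gene, at 114 ± 14.9 against 117 ± 16.1 CPM (SD, n = 4 each). The Ras exchange factor Sos1 was at 0.09, the JNK pathway kinase Map2k4 at 0.09, the p38 target kinase Mapkapk2 at -0.04 and Creb1, the cAMP response factor gene, at -0.09 on the log2 scale. Growth factor receptors leaned the other way, with 8 of 9 above 0 (median 0.03): Pdgfrb, the PDGF receptor of mesenchymal cells, was at 291, 318, 277 and 241 CPM against 266, 315, 248 and 237 CPM. Its groups overlapped while each letter was higher with the TSP-4 plasmid (log2 fold change 0.08, SE 0.11, without the block and 0.08, SE 0.04, with it, adjusted p = 0.615).

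Phosphatase and Ras feedback genes outside the set had 11 of 14 below 0 (median -0.08). Of the 14, 3 were lower in 4 of 4 letters (8.04% of all genes). With the block 2 were lower at an unadjusted p under 0.05 (3.98% of all genes). Rasa1, a GTPase-activating protein of Ras, stood at 179.8, 192, 217 and 203 CPM with the TSP-4 plasmid and 196, 209, 252 and 222 CPM with the empty plasmid. It was lower in every letter (log2 fold change -0.15, SE 0.09, without the block and -0.15, SE 0.04, with it, adjusted p = 0.339), while Zfp36l2, an AU-rich binding protein, was at -0.03.

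A further 40 tested early-response genes, mostly secreted factors and stress regulators, had 34 below 0, with a median of -0.09. Of these, 14 were lower in 4 of 4 letters (8.04% of all genes). With the block 11 were lower (3.98% of all genes) and 2 higher (4.14%) at an unadjusted p under 0.05. Nfil3, a bZIP repressor of clock and cytokine genes, stood at 25.4, 26.5, 26.4 and 28.4 CPM with the TSP-4 plasmid and 30.01, 30.9, 32.2 and 32.2 CPM with the empty plasmid. The groups did not overlap (log2 fold change -0.23, SE 0.06, without the block and -0.23, SE 0.06, with it, adjusted p = 0.339). The chemokine Cxcl1, named after its values were seen, was at 47.6, 178, 347 and 164 CPM against 61.2, 248, 357 and 207 CPM. It was lower in each letter, but the letters differed far more than the plasmids, and it was called only by DESeq2 with the block (log2 fold change -0.30, adjusted p = 0.0398) and by edgeR with the block and without letter C (-0.39, adjusted p = 0.0376).

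Heat shock genes, a stress response with other triggers, were level, with 4 of 8 below 0 and a median of 0.0059. Hspb1, a small chaperone, was at 511 ± 47.6 CPM against 512 ± 86.6 CPM, and Hspa1b, an inducible HSP70 gene, at 88.9 ± 6.51 against 85.2 ± 4.43 CPM (SD, n = 4 each). Their log2 fold changes were -0.00072 and 0.06. The sums over the 8 heat shock genes overlapped between groups, at 3332 to 4184 CPM with the TSP-4 plasmid and 3193 to 4221 CPM with the empty plasmid.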

How the data were processed

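Poly(A) RNA of 8 libraries, 4 per plasmid, was sequenced, and the authors deposited a table of whole-number read counts per gene and a table of FPKM for the same 54532 genes. Per the submitters' processing notes, HTSeq 0.6.1, Cufflinks 2.1.1, TopHat2 2.0 and CASAVA were used on builds GRCm38.p6 and mm10. Which tool made which value, the annotation release, strand handling and multimapped reads: not given in the sources used here. Without strand, a gene and one overlapping it on the opposite strand cannot be told apart: 12 of the 47 genes overlap another gene, and for 1 of these, Junb, the other gene holds over 10% as many counts. Each deposited FPKM equals the count divided by gene length, times a constant per library, and FPKM were used for levels between genes and for 1 scaling check.

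Counts were tested in R 4.3.3 with edgeR 4.0.16 (quasi-likelihood test, TMM factors, edgeR's expression filter at a minimum count of 10), on plasmid alone, adjusted by Benjamini-Hochberg over 14723 genes at 0.05. Within-letter differences are of log2 CPM with a prior count of 2. Alternatives were the letter as a replicate block, DESeq2 1.42.0, limma voom (limma 3.58.1), RLE size factors, no expression filter, other scalings, and leaving out libraries or letters. The test was run on simulated data first. Depth was 17123735 to 22530947 counts per library, and intervals are 95% intervals from the fit.

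That letters pair libraries is a finding from the data. Deviations of same-letter libraries from their group means had, across genes (not independent replicates), Pearson's r of 0.651, 0.512, 0.594 and 0.508 for A to D, above the limit of 0.1. Between letters r was -0.57 to 0.323, and each of the 8 libraries had its highest r with the other library of its letter.

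The 47 genes, the other gene lists and the tests were chosen with earlier results of these data known. Values for every library are given for 25 of the 47: those with an unadjusted p under 0.05 with or without the block, the 5 highest by FPKM, and the smallest p of each role group. From each other list the gene with the smallest p and the highest FPKM is named. Other genes were named after their values were seen. Promoter windows are from RefSeq (GRCm38.p6), and 3′ UTRs from GENCODE M21.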

Additional observations from a re-analysis of the deposited data

Results flagged for a closer look

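In each group of 4 libraries the highest or lowest library was examined for a gap to its nearest neighbor above Dixon's 95% critical value, for the 45 tested genes, the total counts and the mitochondrial share. Of 94 groups, 9 passed, and chance gives about 5%. The gap is given as a share of the range.

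The TSP-4 plasmid library A stood low for 3 genes: Junb at 123 CPM with the others at 187 to 197 (gap 0.854), Btg1 at 49.7 CPM with the others at 77.3 to 81.7 (0.864), and Ier5 at 84.4 CPM with the others at 88.6 to 89.2 (0.861). The same library had the most total counts, 22530947 against 17123735 to 17681837 in the others (0.897). The TSP-4 plasmid library D stood high for 3 genes: Maff at 296 CPM with the others at 178 to 191 (0.883), Mafk at 202 CPM with the others at 139 to 147 (0.873), and Rcan1 at 66.3 CPM with the others at 36.6 to 41.0 (0.85). The empty plasmid library B stood low for Myc, at 70.4 CPM with the others at 89.1 to 92.3 (0.854), and for Ier5, at 93.1 CPM with the others at 96.8 to 97.0 (0.933).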

How the results depend on the processing

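No early-response gene was called under any of the 19 alternatives fitted, and the median log2 fold change and the number of genes below 0 kept their direction in all of them. Leaving out each library in turn gave a median of -0.227 to -0.069 and 36 to 41 genes below 0. The number with an unadjusted p under 0.05 was 4 without and 23 with the replicate block, which pairs libraries by letter; it was 17 with DESeq2 and the block and 25 with limma voom and the block. With the block it was 12 without letter A, 24 without B (1 of them higher), 15 without C and 23 without D. With single libraries left out and no block it ran from 2, without the empty plasmid library C, to 16, without the TSP-4 plasmid library D. For fits with a letter or library left out, the share of all genes under that p was not counted. These counts therefore cannot be set against a background. The number of genes called in the other lists went from 0 to 1, Cxcl1, with DESeq2 and the block and with the block without letter C. The block changed no other call among the early-response genes or the other lists.

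Of 25 genes with values for every library, Fosl2 aside, 21 kept their sign throughout, but sizes moved: 15 came nearer to 0 by over 1.5 times or changed sign without the TSP-4 plasmid library A, and 12 moved away from 0 by as much without the TSP-4 plasmid library D. Dusp4, which had no clear sign, moved from -0.0022 to 0.0014 with DESeq2, 0.00098 with DESeq2 and the block, 0.0015 with RLE factors, and 0.032 and 0.019 with the block without letters C and D; leaving out single libraries gave -0.084 to 0.11. Leaving out single libraries gave -0.289 to 0.012 for Maff, -0.42 to 0.042 for Errfi1 and -0.24 to 0.023 for Btg1. The cause of these moves was not tested. The number of genes lower in 4 of 4 letters was 21 with TMM, RLE or FPKM scaling, with a prior count of 0.5 and with no filter (of 47 genes), and 23 by library totals, where 9.91% of all genes were.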
